A study of Mus musculus with 12 samples.

Results

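The mitochondrial genome was represented by 37 of the 41388 gene rows in each count table, taken as every row whose chromosome was MT. They comprised 13 protein-coding, 2 rRNA and 22 tRNA genes, and all 37 had the same position in GENCODE M21 on the GRCm38 build. Read counts came from RNA-seq of EGFP-positive dorsal root ganglion neurons isolated by fluorescence-activated sorting from 3-month-old C57BL/6 mice (C57BL/6J in the design text). The 4 groups of 3 libraries were male L6S1, female L6S1, male L345 and female L345, where L6S1 denotes ganglia of lumbar level 6 and sacral level 1 and L345 ganglia of lumbar levels 3, 4 and 5. Neurons of every group carried RetFloxedEGFP, a floxed RET9 knock-in carried in heterozygous form at the Ret locus that gives EGFP after excision, and Scn10a<tm2(cre)Jnw> (NaV1.8Cre), so the libraries hold no group without Cre or with both Ret alleles unaltered. The sort therefore selected Ret-expressing neurons with a history of Scn10a promoter activity, the nociceptor sodium channel gene. No library came from a single animal: each pooled 12 to 32 ganglia of 2 to 8 mice, and male L345 C was recorded with 5 mice in the pool-size label and 3 in the protocol. The titles had 2 forms, 9CGNAV for male L6S1 C, female L6S1 B, female L6S1 C and female L345 D, and RetFloxEGFP-NaV1.8Cre for the other 8 libraries. The genotype label of the 4 libraries with the 9CGNAV form names only 1 of the alleles, while their source name gives both.

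Mitochondrial DNA is transcribed from both strands into long precursors, from which tRNAs are cut out to release the mRNAs and rRNAs between them. The mRNAs encode subunits of respiratory complexes I, III, IV and V, which are completed by many nuclear-encoded subunits, whereas complex II is entirely nuclear. The rRNAs form the mitochondrial ribosome, and sensory neurons rely on oxidative phosphorylation to supply their long axons.

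Total counts ran between 16176436 and 26694404 per library, so that 3 counts corresponded to at most 0.185 CPM (counts scaled to a common library total). Sensory neuron markers summed to 24050 to 31290 CPM at L6S1 and 21280 to 23830 CPM at L345, and none of the 14 was at 0 in any library. Female L6S1 C stood apart, with 233.8 CPM of summed immune markers, 508.9 CPM of fibroblast markers and the lowest mitochondrial share. Satellite glia and Schwann cell markers summed to 4022 to 4771 CPM at L6S1 and 3836 to 4479 CPM at L345. Fibroblast markers summed to 145.4 to 508.9 CPM at L6S1 and 88.25 to 110.8 CPM at L345, and immune markers to 15.21 to 233.8 CPM at L6S1 and 5.315 to 7.274 CPM at L345. The neuron, fibroblast and immune sums were each higher in every L6S1 library than in any L345 library. Each sum weighs its abundant markers most. Over the 12 libraries, Calca averaged 7110 ± 1490 CPM and Tubb3 5120 ± 1180 among the neuron markers (SD). Among the fibroblast markers, Dcn averaged 138 ± 89.9 CPM and Pdgfra 1.59 ± 0.381 (SD). How many of all genes separate between the levels in this way was not counted. Of the 10 immune markers, C1qa was at 0 in 10 libraries and C1qc in 9. The part of neurons, fibroblasts and immune cells in the results was not tested. With the summed glial markers as a term, the log2 fold change was -0.20 for mt-Rnr1, -0.11 for mt-Rnr2 and 0.13 for mt-Nd2.

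A block of the mitochondrial genome yielded almost no counts, which sets what could be measured. The 6 protein-coding rows mt-Co2, mt-Atp8, mt-Atp6, mt-Co3, mt-Nd3 and mt-Nd4l held 60 counts in total over the 12 libraries, against 3854533 counts on all mitochondrial rows. These genes encode cytochrome c oxidase subunits 2 and 3, ATP synthase subunits 8 and 6, and complex I subunits 3 and 4L. They lie beside each other on the mitochondrial genome, with tRNA genes between some of them, and 5 of the 6 have a close copy among nuclear genes on chromosome 1. Over the 7 annotated copies, the block ran from position 6390 to 11042 of MT, 4653 bases, and matched chromosome 1 in the opposite orientation between 24611535 and 24616197 (GRCm38). The 7 copies lie in the same order as their mitochondrial genes, with the offset between matching positions equal in 5 of them and different by 1 base in the other 2. All 11 mitochondrial rows lying wholly inside this block, 6 protein-coding and 5 tRNA, summed to between 0 and 27 counts per library. The other 9 mRNA and rRNA rows held between 1326 and 142966 counts in a library.

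The share of each gene that another transcript repeats exactly was computed as 50-base windows found in any nuclear transcript of GENCODE M21. It was 100% for mt-Co2, 99.9% for mt-Co3, 99.5% for mt-Atp6, 98.8% for mt-Nd4l and 98% for mt-Nd3. It was 62.2% for mt-Nd4, 51.1% for mt-Co1, 8.19% for mt-Nd2, 7.61% for mt-Nd5 and 1.04% for mt-Rnr2, and 0 for mt-Nd1, mt-Cytb, mt-Nd6 and mt-Rnr1. For mt-Atp8, no annotated nuclear copy was found, although it overlaps mt-Atp6 by 43 bases and lies inside the same block. Neither the handling of reads with several matches nor the strand setting is given in the sources used here, so the part of those settings in the low counts was not tested.

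The starts of mt-Atp6 and mt-Nd3 are shown with the starts of their chromosome 1 copies because they differ by no base and by 1 base. Capitals in the first pair mark the stretch of mt-Atp6 that mt-Atp8 also covers, and in the second pair the differing base.
mt-Atp6: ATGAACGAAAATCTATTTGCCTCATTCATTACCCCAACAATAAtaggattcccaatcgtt
Gm10925: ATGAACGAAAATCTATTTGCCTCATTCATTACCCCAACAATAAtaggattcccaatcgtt
mt-Nd3: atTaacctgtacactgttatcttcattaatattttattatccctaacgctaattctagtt
Gm28438: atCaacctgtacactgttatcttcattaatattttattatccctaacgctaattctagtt
The mt-Atp6 stretch is MT:7927-7986 on the plus strand and that of Gm10925 is chr1:24614592-24614651 on the minus strand. The mt-Nd3 stretch is MT:9459-9518 on the plus strand and that of Gm28438 is chr1:24613060-24613119 on the minus strand, both on GRCm38 and read from the GENCODE M21 transcripts. Counting from 1 at the gene's start and giving the mitochondrial base first, the difference is T3C, at position 9461 of MT, and it is the only mismatch over the aligned length.

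Most of the copies held few counts as well. Gm28661, 100% identical to mt-Co2 over 681 bases, had 0 to 2 counts per library, and Gm10925 and Gm28437, identical to mt-Atp6 over 678 bases and to mt-Co3 over 783 bases, had 0 to 3 counts each. Gm10222, identical to mt-Nd4l over 294 bases, had 0 counts in all 12 libraries. Gm28438 was the exception on chromosome 1, with 55, 79 and 16 counts in male L6S1 A, B and C, 48, 52 and 0 counts in female L6S1 A, B and C, 35, 70 and 63 counts in the male L345 libraries A, B and C, with 70, 31 and 130 counts in female L345 B, C and D. On chromosome 2, Gm13340, 97.61% identical to mt-Co1, had 25 to 99 counts, and Gm13341, 95.91% identical to mt-Co2, had 8 to 30 counts. The origin of the reads counted on the copies, nuclear or mitochondrial, was not tested.

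mt-Nd3 had a count above 0 in 5 libraries. It had 0, 0 and 4 counts in male L6S1 A, B and C, and 7, 11 and 25 counts in female L6S1 A, B and C. It had 0 counts in each male L345 library, and 0, 4 and 0 counts in female L345 B, C and D. Female L6S1 C, which had the most mt-Nd3 counts, was the single library with none on Gm28438. The level difference of mt-Nd3 did not pass the test (edgeR adjusted p = 0.118). It rests on 47 counts summed over L6S1 and 4 summed over L345, all 4 in female L345 C, so the fitted log2 fold change of 3.51 ± 1.27 (SE) depends on the prior count and is no measure of size. With the counts of its copy added, the log2 fold change was -0.31 ± 0.40 (SE).

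**Figure D1:**
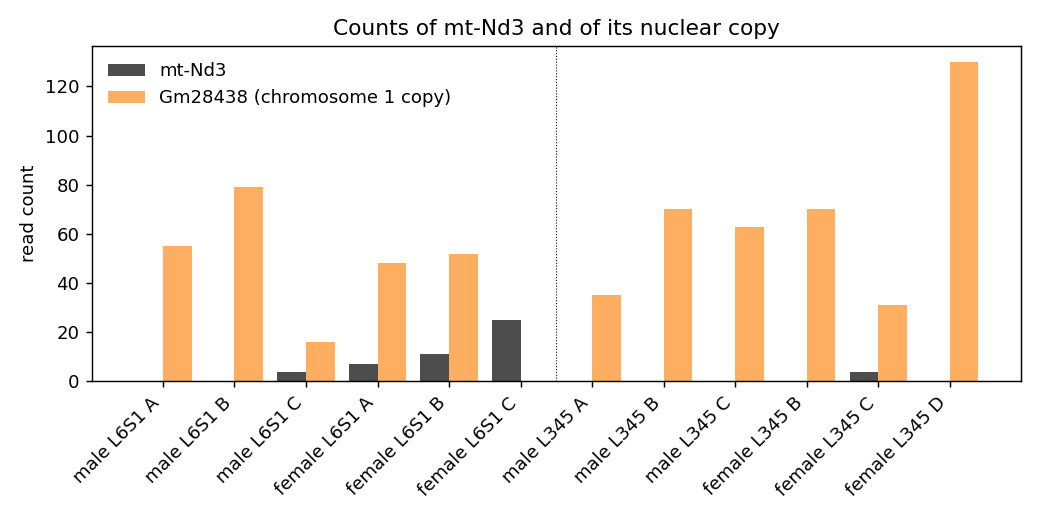
Read counts of mt-Nd3 and of its chromosome 1 copy Gm28438 in each of the 12 libraries, L6S1 left of the dotted line and L345 right of it. Female L6S1 C had 25 counts on mt-Nd3 and 0 on the copy, and female L345 D had 0 and 130.

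**Figure D2:**
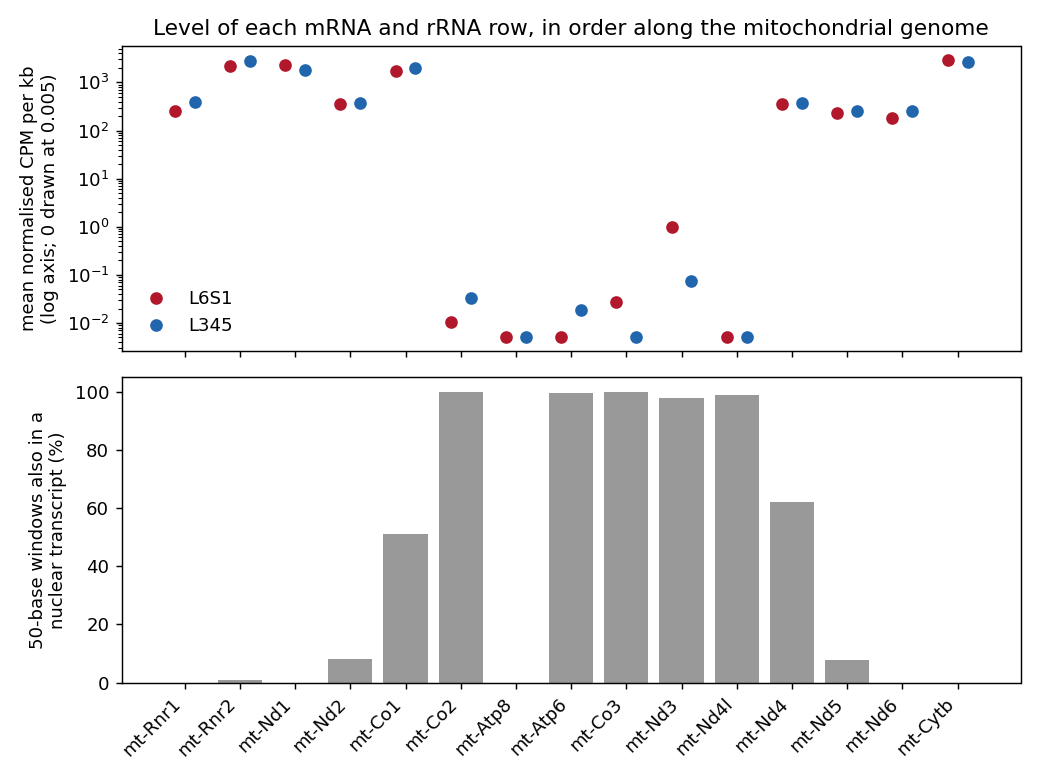
Upper panel, mean normalised CPM per kilobase of each protein-coding and rRNA row in L6S1 and L345 libraries (6 each), in order along the mitochondrial genome, on a log axis with 0 drawn at 0.005. Lower panel, percent of the 50-base windows of each gene found in a nuclear transcript. In the upper panel, the rows from mt-Co2 to mt-Nd4l are near 0 in both groups.

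The part of the counts on mitochondrial rows overlapped between the levels. The share of total counts was 1.10%, 1.42% and 1.12% in male L6S1 A, B and C, and 1.504%, 1.93% and 0.851% in female L6S1 A, B and C. It was 1.27%, 1.91% and 1.25% in the male L345 libraries A, B and C, with 1.64%, 1.47% and 1.04% in female L345 B, C and D. The ranges overlapped, and both the highest and the lowest library were female L6S1 libraries. The mean share was 1.32% ± 0.382 at L6S1 and 1.43% ± 0.310 at L345 (SD, n = 6 each), a difference of -0.107 percentage points that was smaller than either SD. It was -0.0125 without female L6S1 C, -0.0108 without male L345 B and -0.229 without female L6S1 B. By sex, it averaged 1.21% ± 0.182 in male L6S1 against 1.48% ± 0.375 in male L345 libraries, and 1.43% ± 0.545 in female L6S1 against 1.38% ± 0.306 in female L345 libraries (SD, n = 3 each). The protein-coding rows made up 0.947% ± 0.280 of counts at L6S1 and 0.943% ± 0.164 at L345, and the rRNA rows 0.373% ± 0.145 at L6S1 and 0.484% ± 0.156 at L345 (SD, n = 6 each). In bulk samples, fewer cells of a type and less RNA per cell cannot be told apart.

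**Figure D3:**
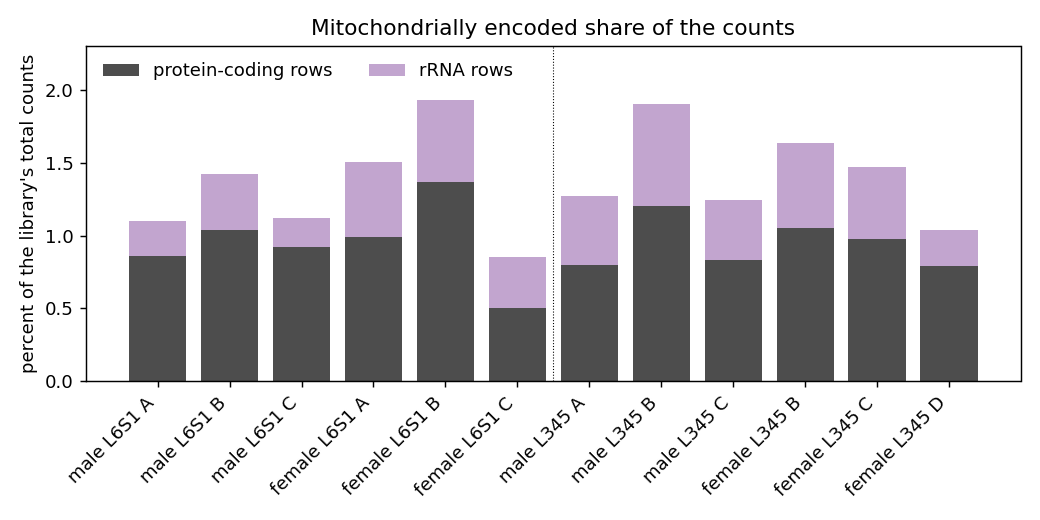
Percent of each library's total counts on mitochondrial protein-coding rows and rRNA rows, stacked, for the 6 L6S1 libraries left of the dotted line and the 6 L345 libraries right of it. Total shares run from 0.851% to 1.93% at L6S1 and from 1.04% to 1.91% at L345.

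No mitochondrial gene passed the test between L6S1 and L345. Of the 37 genes, 18 passed the filter on low counts (8 protein-coding, 2 rRNA, 8 tRNA), and edgeR's quasi-likelihood test with Benjamini-Hochberg adjustment over all genes called 0 of them, with 2 (11.1%) at an unadjusted p under 0.05. Across all 15281 genes tested, 356 (2.33%) were called in either direction, at an adjusted p under 0.05, and 4060 (26.6%) had an unadjusted p under 0.05. The median log2 fold change was -0.16 over the 18 mitochondrial genes and -0.06 over all genes. Within males 0 of 18 were called, against 34 genes (0.222%) in all, and within females 0 of 18, against 55 (0.36%). At an unadjusted edgeR p under 0.05 there were 4 (22.2%) in males, against 1349 (8.83%) of all genes. In females there were 2 (11.1%), against 3674 (24%) of all genes. The difference of the level effect between the sexes called 0 mitochondrial genes and 0 genes in all (0%). There, 1 mitochondrial gene (5.56%) and 713 genes in all (4.67%) had an unadjusted edgeR p under 0.05. Between females and males 0 of 18 were called, against 9 genes (0.0589%) in all. At an unadjusted edgeR p under 0.05 there was 1 mitochondrial gene (5.56%), against 911 (5.96%) of all genes. DESeq2 called 0 mitochondrial genes in each of these comparisons. Of all genes with an adjusted p, it called 11% between levels, 0.759% within males, 5.57% within females, 0.0131% for the difference between the sexes in the level effect and 0.203% between females and males. With limma-voom and quality weights, 1 mitochondrial gene was called higher and 1 lower between levels, where 21.4% of all genes were called, and 3 were called lower within males, where 12.1% were. It called 0 mitochondrial genes within females, for the difference in the level effect and between females and males, where 0.589%, 0.0131% and 0.0654% of all genes were called. An edgeR fit with the replicate letter as a block called mt-Tp higher and mt-Rnr1 and mt-Rnr2 lower between levels, where 13% of all genes were called. Within males that fit called mt-Rnr2 lower, where 0.236% of all genes were called. The labels do not state what the letters mark. The number of all genes called between levels depended on single libraries, from 80 without female L345 B to 4031 without female L6S1 A. In the fit without female L6S1 A, mt-Rnr1 was called lower at L6S1 (log2 fold change -0.78, edgeR adjusted p = 0.0363), where 25.7% of all genes were called.

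**Figure D4:**
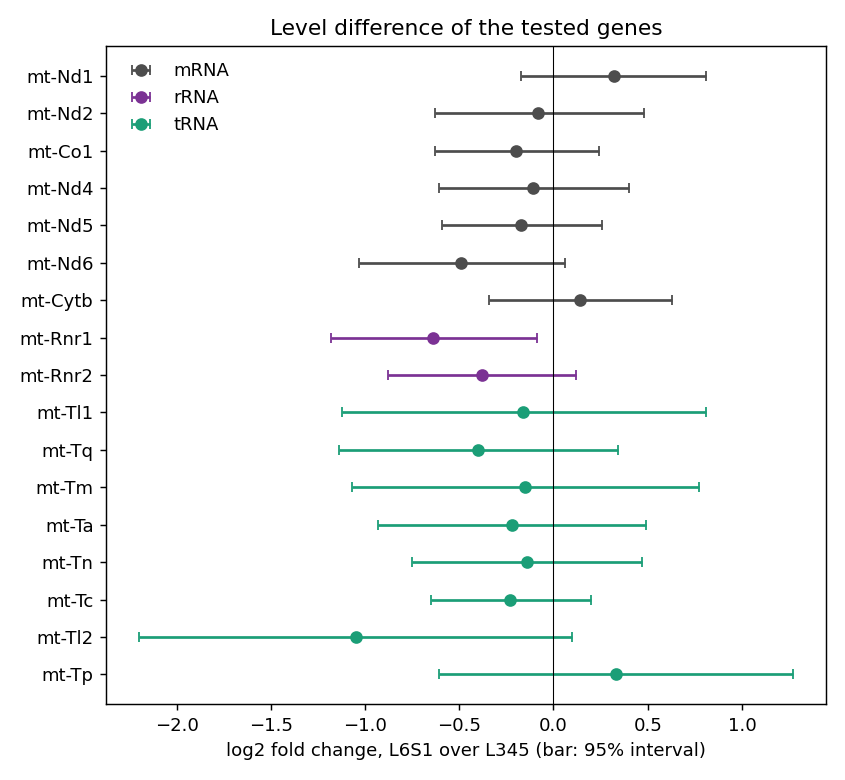
Log2 fold change of L6S1 over L345 with its 95% interval for 17 of the 18 tested genes, by class; mt-Nd3 is left out because its counts are near 0. Every interval except that of mt-Rnr1 crosses 0, and no gene had an adjusted p under 0.05.

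Among the 9 abundant mRNA and rRNA genes, the lowest point estimate belonged to an rRNA. The 12S rRNA of the small ribosomal subunit, mt-Rnr1 (MT, positions 70 to 1024), had 219.0, 308.5 and 127.3 normalised CPM in male L6S1 A, B and C and 352.5, 230.4 and 196.3 in female L6S1 A, B and C. The male L345 libraries A, B and C had 341.5, 526.7 and 416.9 normalised CPM, and the female L345 libraries B, C and D had 359.6, 429.9 and 168.5. The levels overlapped through female L345 D and female L6S1 A. Its log2 fold change was -0.64 ± 0.25 (SE; 95% interval -1.18 to -0.09; edgeR adjusted p = 0.139). It was -0.31 with the title form as a term.

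The 16S rRNA of the large subunit, mt-Rnr2 (positions 1094 to 2675), had 2235.2, 3556.4 and 1811.3 normalised CPM in male L6S1 A, B and C, against 4256.1, 6537.4 and 3694.4 in male L345 A, B and C. In females it had 4679.8, 5489.2 and 3390.2 in L6S1 A, B and C, against 5355.6, 4411.8 and 2252.2 in L345 B, C and D. In males the highest L6S1 value was 3556.4 and the lowest L345 value 3694.4, and the female groups overlapped. How many of all genes separate in males in this way was not counted. Over both sexes the log2 fold change was -0.38 ± 0.23 (SE; 95% interval -0.88 to 0.12; edgeR adjusted p = 0.301), and -0.14 with the title form as a term. It was -0.24 without male L345 B and -0.25 without female L345 B. Within males alone it was -0.93 ± 0.33 (edgeR adjusted p = 0.507). Within females alone it was 0.17 ± 0.33 (edgeR adjusted p = 0.768). The test of the difference between the sexes gave 1.10 ± 0.46 (unadjusted p = 0.0323, edgeR adjusted p = 0.871). For mt-Rnr1 in males the log2 fold change was -0.97 ± 0.36 (edgeR adjusted p = 0.517).

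**Figure D5:**
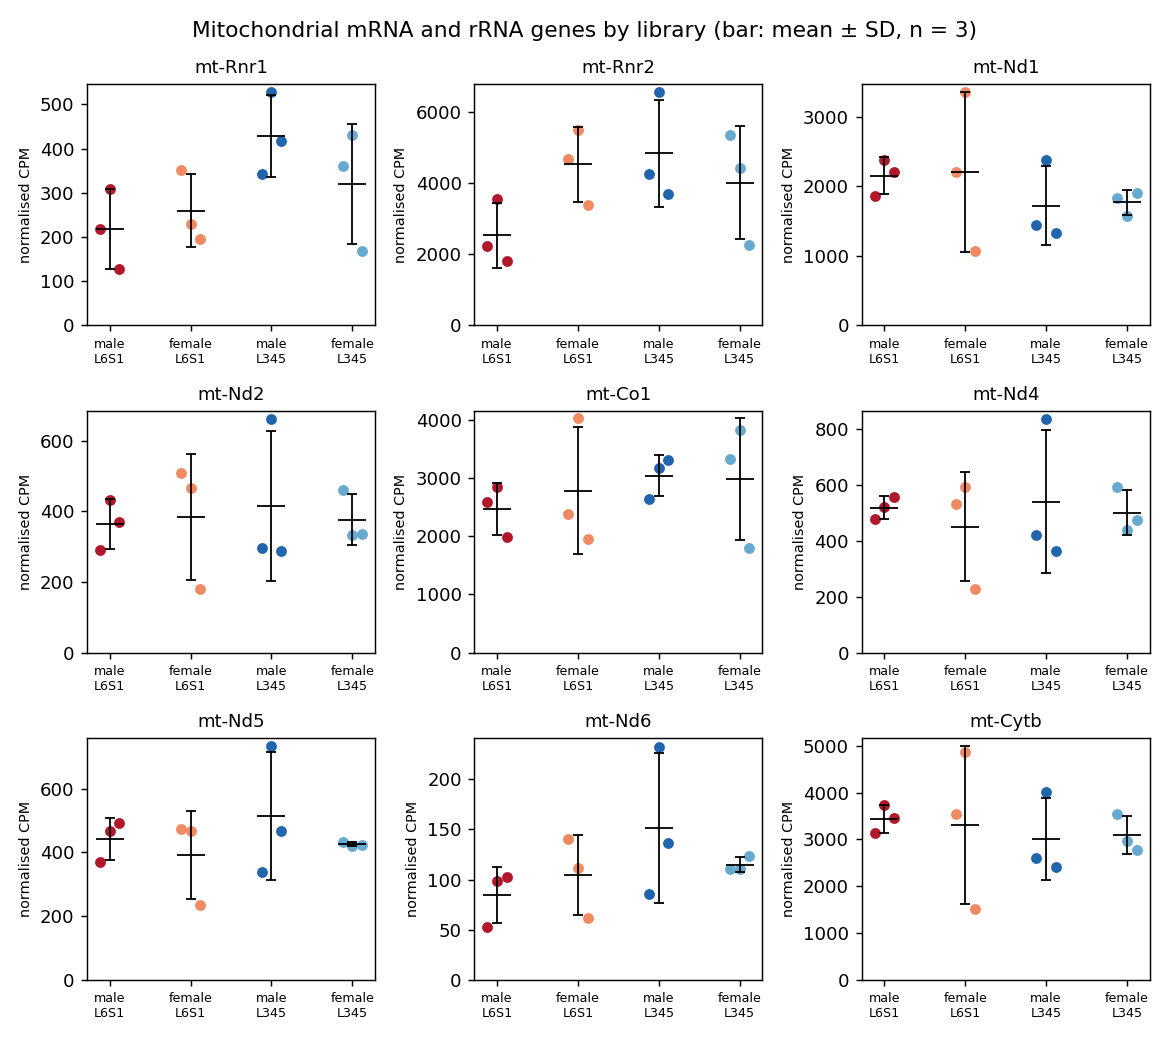
Normalised CPM of the 9 abundant mitochondrial mRNA and rRNA genes in each library, by group, L6S1 groups left of L345 groups; bars are the mean ± SD of 3 libraries. In males, mt-Rnr2 ran from 1811.3 to 3556.4 at L6S1 and from 3694.4 to 6537.4 at L345. In males, mt-Rnr1 ran from 127.3 to 308.5 at L6S1 and from 341.5 to 526.7 at L345. Within males, mt-Rnr2 and mt-Rnr1 did not pass the test (edgeR adjusted p = 0.507 and 0.517). How many of all genes separate in males was not counted.

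The tested mitochondrially encoded complex I subunit genes did not pass the test in either direction. The first subunit gene, mt-Nd1 (positions 2751 to 3707), shares no 50-base window with a nuclear transcript. It had 1860.6, 2386.8 and 2214.6 normalised CPM in male L6S1 A, B and C and 2203.6, 3364.4 and 1067.9 in female L6S1 A, B and C. The male L345 libraries A, B and C had 1451.3, 2374.3 and 1334.7, and the female L345 libraries B, C and D had 1839.1, 1569.8 and 1906.4. In all, 5 L6S1 libraries were above the L345 mean of their sex and female L6S1 C was below it. Its log2 fold change was 0.32 ± 0.23 (SE; 95% interval -0.17 to 0.81; edgeR adjusted p = 0.365). It was 0.11 without female L6S1 B, 0.50 without female L6S1 C and 0.19 with an offset for gene length.

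The other complex I genes had log2 fold changes of -0.08 ± 0.26 for mt-Nd2, -0.11 ± 0.24 for mt-Nd4, -0.17 ± 0.20 for mt-Nd5 and -0.49 ± 0.25 for mt-Nd6 (SE). Their 95% intervals were -0.63 to 0.48, -0.61 to 0.40, -0.59 to 0.26 and -1.03 to 0.06. mt-Nd6, the sole protein-coding gene on the minus strand (positions 13552 to 14070), overlaps mt-Nd5 by 14 bases. It averaged 94.6 ± 32.8 normalised CPM at L6S1 and 133.0 ± 51.5 at L345 (SD, n = 6 each; edgeR adjusted p = 0.231), and its log2 fold change was -0.26 without male L345 B. mt-Nd2 averaged 375.0 ± 121.6 at L6S1 and 395.7 ± 144.0 at L345, mt-Nd4 485.0 ± 131.7 at L6S1 and 521.6 ± 171.3 at L345, and mt-Nd5 417.1 ± 100.1 at L6S1 and 469.4 ± 136.1 at L345. All of these ranges overlapped between levels.

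Of the genes for the later complexes, those with counts were mt-Cytb and mt-Co1. Cytochrome b, the mitochondrially encoded subunit of complex III (mt-Cytb, positions 14145 to 15288), ranged over 1505.8 to 4860.2 normalised CPM at L6S1 (median 3492.6) and 2413.9 to 4015.6 at L345 (median 2868.0). Its log2 fold change was 0.14 ± 0.22 (SE; 95% interval -0.34 to 0.63; edgeR adjusted p = 0.698), and -0.05 without female L6S1 B. The catalytic core of complex IV, mt-Co1 (positions 5328 to 6872), ranged over 1952.1 to 4024.4 at L6S1 (median 2484.1) and 1802.7 to 3828.5 at L345 (median 3239.9). Its log2 fold change was -0.20 ± 0.20 (SE; 95% interval -0.63 to 0.24; edgeR adjusted p = 0.538), -0.38 without female L6S1 B and -0.08 without female L6S1 C. Both genes were lowest, within L6S1, in female L6S1 C and highest in female L6S1 B.

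Levels per length differed widely along the genome. Over the 12 libraries, mt-Cytb averaged 2806.3 ± 749.8 normalised CPM per kilobase, mt-Rnr2 2511.0 ± 910.1, mt-Nd1 2052.7 ± 636.0 and mt-Co1 1826.4 ± 471.9 (SD). These 4 rows held 87.1% of all mitochondrial counts, and the mean of each was within an SD of the next in this order. The next were mt-Nd2 at 371.2 ± 122.9, mt-Nd4 at 365.2 ± 106.6, mt-Rnr1 at 320.9 ± 125.8, mt-Nd5 at 243.0 ± 64.2 and mt-Nd6 at 219.2 ± 88.2. Per 1000 of the 50-base windows that no nuclear transcript shares, mt-Co1 averaged 3860.3 ± 997.3 and mt-Nd4 1002.6 ± 292.7 normalised CPM, against 2931.9 ± 783.3 for mt-Cytb (SD, n = 12).

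Within the mitochondrial counts, mt-Nd1 made up 12.1% to 19.9% in L6S1 libraries, against 10.7% to 12.4% in the L345 libraries other than female L345 D, which had 18.5%. The rRNA rows made up 17.4% to 26.9% in male L6S1 and 29.1% to 40.6% in female L6S1 libraries, against 33.0% to 36.9% in L345 libraries other than female L345 D, which had 23.5%. The share of total counts on Gm42418 was 0.249% to 0.702% at L6S1, against 1.27% to 2.03% at L345 except in female L345 D, which had 0.675%. The median log2 deviation from the mean library of the longest decile of genes minus that of the shortest decile was -0.79 to 0.07 at L6S1, against 0.11 to 0.49 at L345 except in female L345 D, at -0.20. Male L6S1 A, B and C had 21.8%, 26.9% and 17.4% rRNA at 0.675%, 0.702% and 0.441% Gm42418. Female L6S1 A, B and C had 33.9%, 29.1% and 40.6% rRNA at 0.641%, 0.249% and 0.476% Gm42418. The part of these measures in the mitochondrial composition was not tested.

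Transfer RNA rows held few counts, 353 to 834 per library at L6S1 and 311 to 1147 at L345, and 7 of the 22 were at 0 in every library. The 3 rows with most counts, mt-Tp, mt-Tq and mt-Tc, held 80.3% of tRNA counts and all lie on the minus strand, opposite to most of the mRNAs. They carry the tRNAs for proline, glutamine and cysteine, at positions 15356 to 15422, 3772 to 3842 and 5192 to 5257. mt-Tp had 6.82, 6.34 and 15.6 normalised CPM in male L6S1 A, B and C, 4.76, 10.1 and 5.57 in female L6S1 A, B and C, 3.06, 8.97 and 4.86 in the male L345 libraries A, B and C, with 2.66, 3.28 and 16.2 in female L345 B, C and D. The 2 highest values belonged to male L6S1 C and female L345 D, both with the 9CGNAV title form. mt-Tq was also highest in female L345 D, at 15.5, against 2.82 to 8.34 at L6S1 and 3.20 to 8.62 in the other L345 libraries. The log2 fold changes were 0.33 ± 0.44 for mt-Tp, -0.40 ± 0.34 for mt-Tq and -0.23 ± 0.20 for mt-Tc (SE; edgeR adjusted p = 0.643, 0.461 and 0.469). The next tRNA row by level per kilobase, mt-Tl1 for leucine, averaged 0.974 ± 0.384 normalised CPM at L6S1 and 1.09 ± 0.700 at L345 (SD, n = 6 each), and its log2 fold change was -0.16 ± 0.45 (SE; edgeR adjusted p = 0.838). Reads on a tRNA and reads on an uncut precursor cannot be told apart here, nor can the 2 strands, as the strand setting is not given.

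Nuclear genes of the same complexes were read beside these values. Of 76 tested nuclear genes listed for complexes I to V, not all of them core subunits, 4 were called higher at L6S1 and 0 lower. Of all genes, 222 (1.45%) were called higher. A log2 fold change above 0 was found for 66 of the 76. The medians were 0.38 for complex I, 0.57 for complex II, 0.36 for complex III, 0.33 for complex IV and 0.32 for complex V, beside -0.06 over all genes and -0.16 over the mitochondrial genes. With the length offset the medians were 0.28, 0.49, 0.23, 0.20 and 0.24 in the same order. With the title form as a term they were 0.25, 0.48, 0.25, 0.22 and 0.19. With the summed glial markers as a term they were 0.20, 0.37, 0.19, 0.16 and 0.13. Beside them, the neuron marker sums were 24050 to 31290 CPM at L6S1 and 21280 to 23830 CPM at L345, and their part in these medians was not tested. The called genes were Ndufa9 and Ndufs8, subunits of complex I, and Sdhd and Sdhc, which anchor complex II in the membrane. Ndufa9 averaged 462.8 ± 77.4 normalised CPM at L6S1 and 324.3 ± 31.2 at L345 (SD, n = 6 each; log2 fold change 0.51 ± 0.12, edgeR adjusted p = 0.0472). Sdhd averaged 379.5 ± 89.7 at L6S1 and 249.9 ± 14.8 at L345 (0.59 ± 0.13, edgeR adjusted p = 0.0346). Ndufs8 had 0.60 ± 0.15 (edgeR adjusted p = 0.0484) and Sdhc 0.59 ± 0.14 (edgeR adjusted p = 0.0397).

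These calls were close to the threshold. Without any single male L6S1 library, without female L6S1 B or C, and without any single L345 library except female L345 D, 0 genes of the nuclear lists were called, but 63 were called without female L6S1 A, where 25.7% of all genes were called, and 34 without female L345 D, where 5.63% were. With the title form or the summed glial markers as a term, or without female L6S1 B and C, 0 were called, against 0.818%, 0.406% and 0.848% of all genes. With the length offset 1 was called, against 2.49%. The difference between the nuclear and the mitochondrial medians was not tested.

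Nuclear genes that act on mitochondrial DNA and its transcripts were not called in any of the 4 lists, against 2.33% of all genes. For transcription and replication factors, 0 of 19 were called (median log2 fold change 0.12), with the smallest p for Tefm, the elongation factor of the mitochondrial RNA polymerase (0.42 ± 0.16, edgeR adjusted p = 0.129) and Mterf4 (0.36 ± 0.15, edgeR adjusted p = 0.145). For RNA processing and decay, 0 of 23 were called (median 0.08), with Hsd17b10, a subunit of mitochondrial RNase P, at 0.44 ± 0.14 (edgeR adjusted p = 0.0914) and Fastkd1 at -0.32 ± 0.14 (edgeR adjusted p = 0.174). In the list of translation factors, 0 of 13 were called (median 0.05). The smallest p belonged to Letm1, listed here but not itself a translation factor, at -0.39 ± 0.14 (edgeR adjusted p = 0.109). The initiation factor Mtif3 was at 0.30 ± 0.12 (edgeR adjusted p = 0.139). For biogenesis regulators, 0 of 10 were called (median -0.23), with the transcription factors Yy1 at -0.44 ± 0.15 (edgeR adjusted p = 0.104) and Gabpa at -0.30 ± 0.15 (edgeR adjusted p = 0.205).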

How the data were processed

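Counts per gene were deposited by the authors for 12 libraries with CPM and RPKM beside them; the deposited CPM and RPKM were recomputed from the counts to check them and were not otherwise used. Per the submitters' processing notes, Subread and featureCounts 1.4.5 were used on GRCm38.p2; per the labels' protocols, 10 ng of RNA and 12 PCR cycles went into each library. For the annotation, the strand setting and reads with several matches, the settings are not stated in the labels. Libraries are pools of animals, so p-values measure the spread between pools.

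Genes were tested with edgeR 4.0.16 (quasi-likelihood, robust, TMM, default expression filter), a mean per group, 15281 genes, Benjamini-Hochberg over all of them, called at an adjusted p under 0.05. The SE of an edgeR log2 fold change is its absolute value over the square root of the F statistic, and the 95% interval follows from it. Such an SE is approximate, most of all for rows near 0 such as mt-Nd3. Normalised CPM are counts over the TMM-scaled total. The 37 members and the lists were chosen with earlier results of these data known. Genes named are every mitochondrial mRNA and rRNA gene, the 4 tRNA genes of highest RPKM, nuclear copies averaging at least 2 CPM (other copies are named for their sequence, after their values were seen), and of each list the called genes or the 2 with the smallest p. Nuclear copies were found with blastn 2.17.0 (at least 95% identity over 100 bases) among GENCODE M21 transcripts, which also gave the sequences and symbols. DESeq2 1.42.0 and limma 3.58.1 were alternatives. The fit was tested on simulated counts with changes put into genes drawn at random. That test does not give the power for the mitochondrial genes. The floor of 3 counts covers counting error only.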

Additional observations from a re-analysis of the deposited data

Results flagged for a closer look

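Counts appeared on nuclear copies of mitochondrial genes, rows outside the comparisons, above the 3 counts that a count of 0 allows. The highest count in a library was 130 for Gm28438 (copy of mt-Nd3), 99 for Gm13340 (mt-Co1), 30 for Gm13341 (mt-Co2) and 5 for Gm4076 (mt-Nd5). Whether these reads came from the copies or from the mitochondrial genes was not tested.

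A single library lay far from the other 5 of its level in 3 of 37 sets of 6 libraries; chance gives about 1 in 20. Female L6S1 C had 227.4 normalised CPM of mt-Nd4, far below the other L6S1 libraries. Male L345 B had 733.7 normalised CPM of mt-Nd5 and 232.2 of mt-Nd6, far above the other L345 libraries. The set of mt-Nd3 at L345, with 5 of 6 libraries at 0, was left out because any count would stand apart there.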

How the results depend on the processing

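Counts of called mitochondrial genes were 0 in each direction of the 5 comparisons under every alternative except the following. With limma-voom and quality weights, 1 was higher (mt-Nd3, 2.05, limma adjusted p = 0.0358) and 1 lower (mt-Tl2) between levels, and 3 were lower in males (mt-Rnr1, mt-Rnr2, mt-Tl2), where 21.4% and 12.1% of all genes were called. With the replicate block, 1 was higher (mt-Tp) and 2 lower between levels (mt-Rnr1 at -0.86, mt-Rnr2 at -0.53; edgeR adjusted p = 0.0391 and 0.0287), and 1 lower in males (mt-Rnr2), where 13% and 0.236% of all genes were called. Of the same-letter pairs, 3 of 5 correlated over 0.1 (0.01 to 0.37). Different-letter pairs gave -0.50 to 0.36, with 3 of 13 over 0.1. These values do not settle whether the letters mark pairs. The labels do not state what the letters mark, so the main fit left them out. Leaving out a library gave 0 to 1 lower between levels and 0 to 1 higher in females (mt-Nd3, without female L6S1 A, where 24.5% of all genes were called), and 0 in the other directions.

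Of 267 single-gene values under alternatives, 247 kept direction and side of the threshold. mt-Nd3, with a fitted 3.51 that is no measure of size, turned to -0.31 with nuclear copies added. mt-Nd2 turned to 0.02 when scaled to the mitochondrial sum, 0.01 with limma-voom and with the title form as a term, 0.07 in the 8 libraries of the first title form, 0.13 with the glial term and 0.12 without female L6S1 B and C. mt-Nd4 turned to 0.00 with limma-voom and 0.01 without female L6S1 B and C. Leaving out a library gave -0.20 to 0.18 for mt-Nd2, -0.23 to 0.12 for mt-Nd4, -0.28 to 0.01 for mt-Nd5, -0.05 to 0.33 for mt-Cytb, -0.80 to -0.49 for mt-Rnr1, -0.54 to -0.24 for mt-Rnr2, 0.11 to 0.50 for mt-Nd1, -0.38 to -0.08 for mt-Co1 and -0.63 to -0.26 for mt-Nd6. The cause was not tested.

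The share difference was -0.229 to -0.0108 percentage points when leaving out a library. It was 0.00468 for protein-coding rows alone and 0.0045 without the rRNA rows, moves smaller than the SD of libraries. Scaling to the mitochondrial sum moved the median of all genes from -0.06 to 0.06.

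Called genes of the nuclear lists, alternatives added after seeing the data, were 7 with upper-quartile scaling (3.57% of all genes called), 14 with no filter (3.15%), 25 with DESeq2 (11%), 70 with limma-voom (21.4%), 54 with the replicate block (13%), 2 in the 8 libraries (3.12%), 1 with the length offset (2.49%), and 0 when scaled to the mitochondrial sum (0.294%), with the title form (0.818%), with the glial term (0.406%) and without female L6S1 B and C (0.848%). Leaving out a library gave 0 to 63, against 0.51% to 25.7% of all genes. DESeq2 gave no adjusted p for mt-Nd3. The few counts on mt-Nd3 and the tRNA rows limit their precision.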
